A study of Mus musculus with 2 samples.

Results

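The 10 genes described here encode the main enzymes that remove superoxide and hydrogen peroxide, together with the small protein thioredoxin that recharges some of them. They are Gpx1, Gpx3, Gpx4, Prdx1, Prdx5, Prdx6, Txn1, Cat, Sod1 and Sod2. They were chosen by symbol, keeping each gene's transcript with the highest read total. All 10 were found among the 23456 genes of the table, in 11 rows, because Gpx4 has 2 transcripts.

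The data hold 1 group of 2 samples: eosinophils from the colons of naive wild-type C57BL6 mice, sorted by flow cytometry after enzymatic digestion. Messenger RNA was read with CEL-Seq, which counts tags near the 3′ end of transcripts, in 3 technical libraries per sample. No source used here states the gate, how many cells were sorted or how many mice gave them, nor that the samples came from separate mice. Each gene has a read total and an RPKM, the reads per kilobase of transcript and per 1000000 reads, and both are taken as the authors' means over 6 libraries. Tags near the 3′ end need not rise in number with transcript length, and several orders below differ between RPKM and reads. Single samples have no values of their own here, and no spread or test between them can be given. A range in parentheses is the exact 95% Poisson interval of a gene's summed reads, expressed on the scale of the value before it; for a ratio it is the exact binomial interval of the paired read totals. They cover counting error only, and the labels name no molecular identifiers.

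The libraries held 7692387 reads on genes in all. Of 8 marker genes of eosinophils, 7 reached an RPKM of 10, as did 8.78% of all genes. Ccr3 had 155 and Siglecf 77.9, while the granule peroxidase gene Epx had 0.265. Markers of other cells were present too. All 9 epithelial markers had reads, as did 16204 of the 23456 genes. The epithelial markers ranged from 5.09 for Cdh1 to 89.3 for Epcam, with a summed RPKM of 262. In the erythroid list the 4 globin genes ranged from 69.3 to 560, while Alas2 had 2.82 and Slc4a1 0.0253. Of the globins, Hba-a1 and Hba-a2 were listed at nearly the same coordinates with the same 4573 reads, so they are not separate measurements. The summed RPKM was 92.9 for 5 macrophage markers (Mertk listed at 0), 135 for 5 fibroblast markers, 35.2 for 6 neutrophil markers (Elane and Mpo listed at 0) and 0.0411 for 3 adipocyte markers (Adipoq and Cfd listed at 0). In sorted bulk RNA, the share of cells that carry a transcript and its amount per cell cannot be told apart, and the part of other cells in the levels below was not tested.

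Phagocytes make superoxide with the NADPH oxidase. Superoxide dismutases turn it into hydrogen peroxide, which catalase, the glutathione peroxidases and the peroxiredoxins reduce to water. Glutathione peroxidases draw electrons from glutathione, most peroxiredoxins draw them from thioredoxin, and both are recharged with NADPH. Eosinophils are known for a strong oxidative burst and for a granule peroxidase that uses hydrogen peroxide to make oxidants from halides.

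The glutathione peroxidase genes among the 10 gave both the highest and the lowest value. Gpx1, Gpx3 and Gpx4 encode selenoproteins, in which an in-frame TGA codon is read as selenocysteine at the active site. Their coding strands around that codon are shown because the 3 messages share this feature and differ widely in level, and because Gpx4 has a near-identical copy elsewhere in the genome. The windows are from GENCODE M21 transcripts on GRCm38 (mm10), with the TGA codon in capitals and 30 coding bases on either side.
Gpx1, codon 47, exon 1 of 2, plus strand, chr9:108339451-108339453: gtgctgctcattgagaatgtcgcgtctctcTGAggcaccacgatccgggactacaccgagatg
Gpx3, codon 73, exon 2 of 5, plus strand, chr11:54907256-54907258: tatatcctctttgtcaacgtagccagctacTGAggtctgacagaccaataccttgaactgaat
Gpx4, codon 73, exon 3 of 7, plus strand, chr10:80054737-80054739: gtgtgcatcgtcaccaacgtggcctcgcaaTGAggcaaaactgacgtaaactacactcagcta
Gpx4-ps2, a transcribed processed pseudogene, plus strand, chr10:45875291-45876086 as a whole: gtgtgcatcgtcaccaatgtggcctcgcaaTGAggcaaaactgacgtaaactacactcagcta

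Over these 63 bases, compared without gaps, Gpx1 matched Gpx4 at 35 positions and Gpx3 at 27, and Gpx3 matched Gpx4 at 29. The Gpx4 window differed from the pseudogene copy at 1 position, C18T, with Gpx4 given first and positions counted from 1 at the 5′ end of the window.

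Gpx1 (NM_008160, chr9:108339080-108340344), the cytosolic and mitochondrial glutathione peroxidase, had 4286 reads per library and an RPKM of 1261 (1245 to 1276). It ranked 20 of 23456 genes. It made up 76.4% of the summed RPKM of the 10 genes, and 71.0% of their reads (70.6 to 71.5, exact binomial). Its RPKM was 12.0-fold (11.3 to 12.8) that of Sod1, the next of the 10 by RPKM. By reads, without length, it was 22.0-fold that of Sod1 and 7.19-fold that of Prdx6, the next of the 10 by reads.

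Gpx3 (NM_008161, chr11:54902854-54910382), the secreted plasma form, had 189 reads per library and an RPKM of 37.0 (34.9 to 39.2). The RPKM of Gpx1 was 34.1-fold (32.1 to 36.2) that of Gpx3, and its reads were 22.7-fold. Kidney is the best known source of Gpx3, and fat tissue is another. Which cells gave the Gpx3 reads was not tested.

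Gpx4 (NM_008162, chr10:80053510-80056439), the enzyme that reduces lipid peroxides within membranes, had 3 reads over the 6 libraries. Its RPKM was 0.159 (0.0327 to 0.463), at percentile 48.4 of all genes. Its other transcript (NM_001037741) listed the same 3 reads and an RPKM of 0.149. Of 466 sequence words of 35 bases in the last 500 bases of the Gpx4 transcript, 92.5% also occurred in another gene. All of those 431 words were in Gpx4-ps2, and 105 were in a second annotated locus as well. No source used here says how reads with several alignments were treated, so the value of Gpx4 is uncertain, and the part of the copies in it was not tested.

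**Figure D1:**
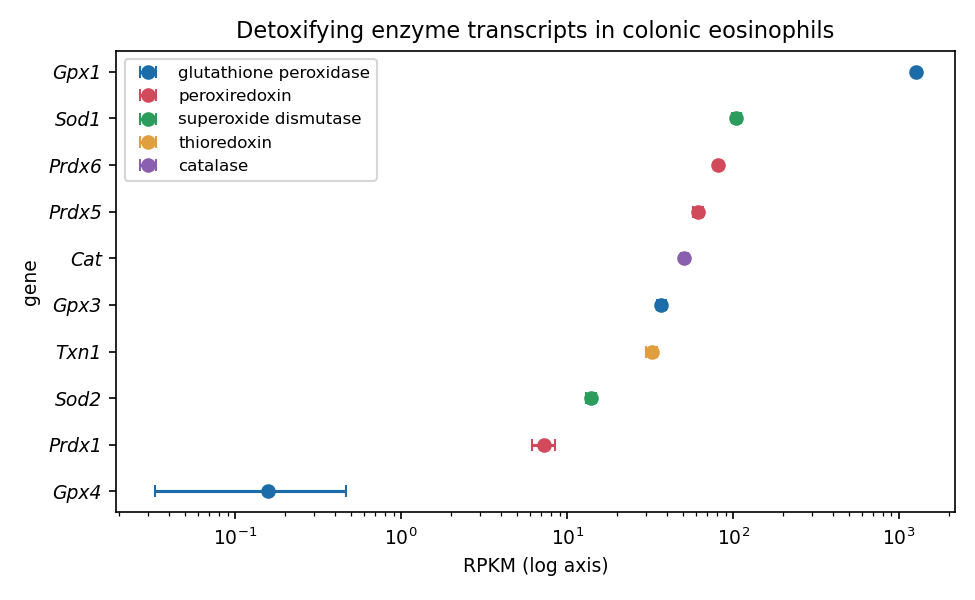
RPKM of the 10 genes on a log axis, with exact 95% Poisson intervals of the reads as bars and colours for the enzyme families. Gpx1 stands alone at 1261, 8 genes lie between 7.23 and 105, and Gpx4 lies at 0.159 with a wide interval from 3 reads.

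Peroxiredoxins use a reactive cysteine to reduce peroxides. The 3 among the 10 genes differed by more than 11-fold in RPKM. Prdx6 (NM_007453, chr1:161240112-161251166), which works with glutathione and also has phospholipase activity, had 596 reads per library and an RPKM of 81.5 (78.8 to 84.2). Prdx5 (NM_012021, chr19:6906819-6909645), an atypical form of mitochondria, peroxisomes and cytosol, had 148 reads per library and an RPKM of 61.6 (57.6 to 65.8). Prdx6 was thus 1.32-fold (1.23 to 1.43) higher than Prdx5 by RPKM, and 4.02-fold higher by reads, without length. The intervals of the levels do not overlap on the RPKM scale.

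Prdx1 (NM_011034, chr4:116685599-116700000), the typical cytosolic form that thioredoxin recharges, had 27.3 reads per library and an RPKM of 7.23 (6.16 to 8.42). The RPKM of Prdx6 was 11.3-fold (9.64 to 13.3) that of Prdx1, and its reads were 21.8-fold. Only 1.50% of the sequence words before the listed end of Prdx1 are in another gene. GENCODE also annotates a Prdx1 transcript that ends 728 bases before the listed end, and 64.2% of the words at its end are in other genes. Another ends 822 bases past the listed end, and tags from there would not fall in the listed transcript. Which end the Prdx1 reads come from cannot be read from the table, so its value is uncertain.

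Catalase, Cat (NM_009804, chr2:103453904-103485153), is the peroxisomal enzyme that splits hydrogen peroxide without an electron donor. It had 342 reads per library and an RPKM of 50.9 (48.7 to 53.1). The RPKM of Gpx1 was 24.8-fold (23.7 to 25.9) that of Cat, and the reads of Gpx1 were 12.5-fold those of Cat. Cat stood at 0.826 (0.763 to 0.895) of Prdx5 by RPKM but at 2.31-fold of it by reads, so that dividing by length turned the order of this pair. No sequence word before the listed end of Cat, Gpx1, Gpx3, Prdx5 or Prdx6 was found in another gene. At the ends of shorter annotated transcripts, 1.29% of the words of a Gpx3 transcript and 0.429% of those of a Prdx6 transcript were.

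Of the superoxide dismutases, Sod1 (NM_011434, chr16:90220742-90226324), the copper and zinc enzyme of the cytosol, had 195 reads per library and an RPKM of 105 (98.8 to 111). Sod2 (NM_013671, chr17:13007839-13018119), the manganese enzyme of the mitochondrial matrix, had 146 reads per library and an RPKM of 14.0 (13.0 to 14.9). By RPKM, Sod1 was 7.50-fold (6.87 to 8.20) higher than Sod2. By reads, without length, the ratio was 1.34, because the listed Sod2 transcript spans 3846 bases of GENCODE sequence and that of Sod1 636. GENCODE places the Sod2 end 2015 bases past the listed one, and tags from there would not fall in the listed transcript. For Sod1, 42.3% of the words are also in the annotated locus Gm8566, and 645 bases of its span overlap Scaf4 on the other strand, which had an RPKM of 1.12. Whether counting used the strand is not stated, and the value of Sod1 is therefore uncertain too.

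Thioredoxin, Txn1 (NM_011660, chr4:57943373-57956411), the cytosolic electron donor for Prdx1 and other typical peroxiredoxins, had 103 reads per library and an RPKM of 32.4 (29.9 to 35.0). Its interval overlapped that of Gpx3. Of the 9 pairs of neighbours in the order of the 10 genes, this was the pair whose intervals overlapped, and the other 8 were separated. Overlap of such intervals does not by itself mean that counting cannot order a pair. The RPKM of Gpx3 was 1.14-fold (1.04 to 1.26) that of Txn1, a range above equality, and its reads were 1.83-fold. The order by RPKM was Gpx1, Sod1, Prdx6, Prdx5, Cat, Gpx3, Txn1, Sod2, Prdx1 and Gpx4. By reads per 1000000 reads on genes (RPM), which do not divide by length, it was Gpx1, Prdx6, Cat, Sod1, Gpx3, Prdx5, Sod2, Txn1, Prdx1 and Gpx4. There, the intervals of Sod1 and Gpx3 and those of Prdx5 and Sod2 overlapped.

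Set against all genes, 8 of the 10 reached an RPKM of 10, as did 8.78% of all genes. An RPKM of 1 was reached by 9 of the 10 and by 31.05% of all genes, and an RPKM of 100 by 2 of the 10 and by 1.28%. The median RPKM was 43.9 over the 10 genes and 0.186 over all genes. Prdx1 lay at percentile 88.8, and the 8 genes above it lay between 93.1 for Sod2 and 99.9 for Gpx1. By RPM, Sod2 stood at percentile 94.7. Txn1 stood at 92.9 by RPM and 96.4 by RPKM, and Prdx1 at 82.3 by RPM. These are descriptions of 1 group, and the genes were proposed with earlier results of the same data known.

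**Figure D2:**
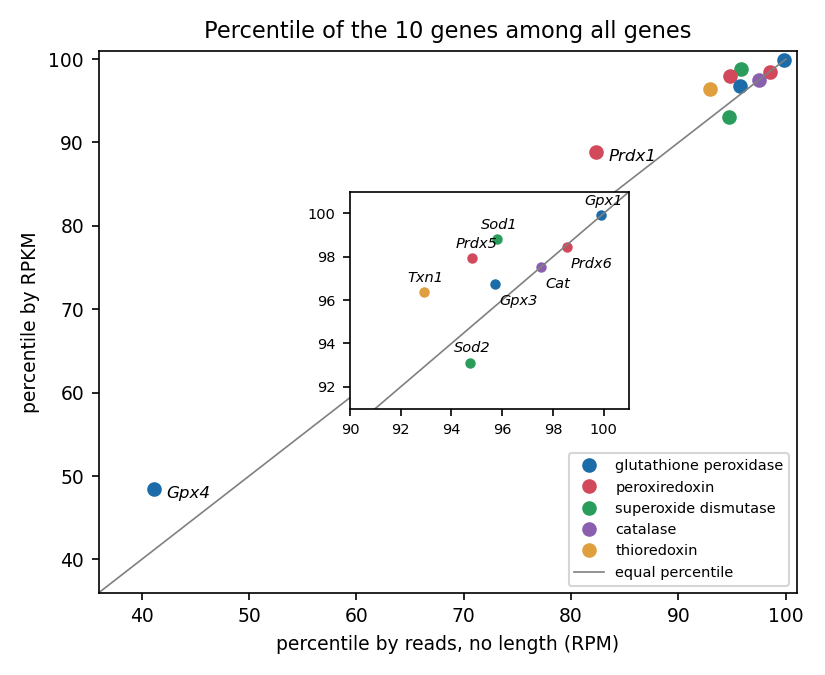
Percentile of each of the 10 genes among 23456 genes by RPKM (vertical) and by RPM (horizontal), with the upper corner enlarged in the inset. Points above the line rank higher once reads are divided by length. Sod2, at 93.1 by RPKM and 94.7 by RPM, is the gene farthest below it.

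The remaining genes of the same families had a lower median, though 2 of them, Txn2 and Gpx2, stood above Sod2, Prdx1 and Gpx4 by RPKM. The intervals of Gpx2 and Sod2 overlapped. By reads over the 6 libraries, Sod2 with 875 stood above both Txn2 with 653 and Gpx2 with 272. The median RPKM was 43.9 for the 10 genes above and 2.24 for 10 other family members. Of the latter, 2 reached an RPKM of 10, as did 8.78% of all genes. Txn2, the mitochondrial thioredoxin, had an RPKM of 26.4 (24.4 to 28.5), so that the RPKM of Txn1 was 1.22-fold (1.10 to 1.37) that of Txn2. By reads, Txn1 stood at 0.948 of Txn2. Gpx2, the glutathione peroxidase typical of gut epithelium, had an RPKM of 14.5 (12.8 to 16.3), beside epithelial markers with a median of 10.9. The RPKM of Gpx1 was 87.2-fold (77.3 to 98.6) that of Gpx2, and 24.7% of the Gpx2 words are in the pseudogene Gpx2-ps1.

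Prdx3, the mitochondrial peroxiredoxin, had an RPKM of 5.02 (4.13 to 6.05). Sod3, the extracellular dismutase, had 4.49 (3.92 to 5.12). The RPKM of Sod1 was 23.3-fold (20.2 to 27.0) that of Sod3, but its reads were 5.20-fold those of Sod3. GENCODE places the Sod3 end 1680 bases past the listed one. Prdx2, a peroxiredoxin abundant in red cells, had 3.79 (2.93 to 4.82), with 28.3% of its words in other genes. An annotated Prdx2 end lies 521 bases past the listed one. The other 5 were below an RPKM of 1: Prdx4 and Gpx8, enzymes of the endoplasmic reticulum, had 0.683 and 0.387, Gpx5 had 0.192, Gpx6 had 0.0698 and Gpx7 had 0.0605. These rest on 11 reads or fewer over the 6 libraries.

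**Figure D3:**
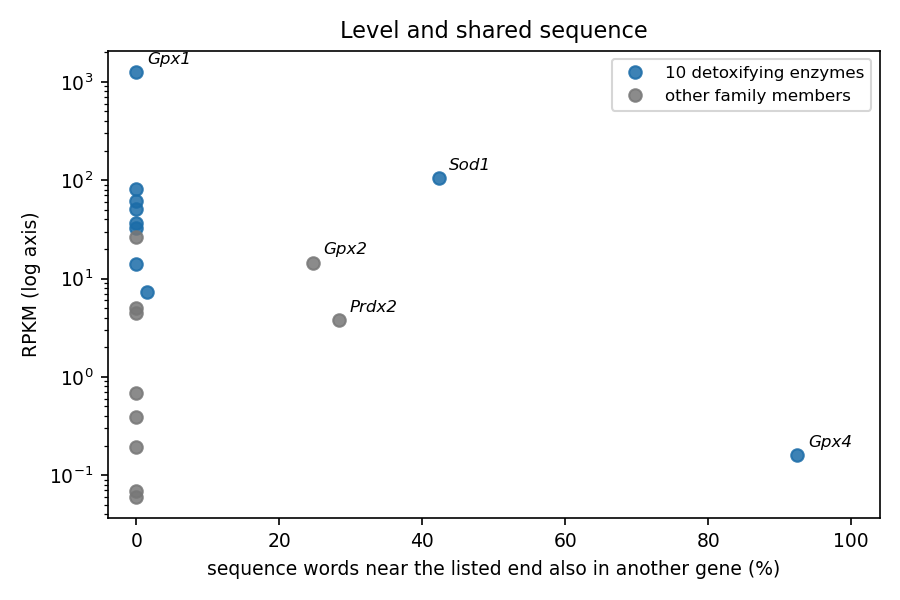
RPKM on a log axis against the percent of 35-base words near the listed 3′ end that also occur in another gene, for the 10 detoxifying enzyme genes and 10 other family members. Gpx4 combines 92.5% shared words with 0.159 RPKM, whereas Sod1 has 42.3% and 105 RPKM.

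Over all 22919 genes searched, 6.86% had 50% or more of such words in another gene. Of those genes, 13.2% reached an RPKM of 1, against 34.8% of genes with no shared word. Gpx4 was the gene with over 50% among the 10, and was below an RPKM of 1. The globin gene Hba-a1, like Gpx4 with 92.5% of its words shared, had an RPKM of 379. The cases are not alike, since Hba-a1 and Hba-a2 are listed at nearly the same coordinates with the same 4573 reads. Gpx4-ps2 lies at a separate locus from Gpx4. Whether shared words lower a level was not tested.

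The enzymes that recharge these peroxidases were unequal. The RPKM of Gpx1 was 28.4-fold (27.1 to 29.7) that of glutathione reductase, Gsr, and its reads were 12.3-fold those of Gsr. Gsr led the glutathione list at an RPKM of 44.5 (42.6 to 46.4). Slc7a11, the cystine importer, had 6.61, but 1088 reads over the 6 libraries against 2090 for Gsr. The subunits of the enzyme that starts glutathione synthesis, Gclm and Gclc, had 5.14 and 3.83. By reads Gclc was the higher, with 247 against 169 for Gclm. GENCODE annotates ends past the listed ones, by 3517 bases of genome for Gclm and 472410 for Slc7a11. Tags from there would not fall in the listed transcripts. The fifth gene, glutathione synthetase Gss, had an RPKM of 0.663. On the thioredoxin side, all 10 genes of the list reached an RPKM of 1, as did 31.05% of all genes. The RPKM of Txn1 was 0.342 (0.314 to 0.372) of that of Txnrd1, the cytosolic thioredoxin reductase, which had 94.7 (92.0 to 97.3). By reads, Txn1 stood at 0.125 of Txnrd1. Its mitochondrial counterpart Txnrd2 had 1.66. Glrx5 had 35.0, sulfiredoxin Srxn1, which rescues overoxidised peroxiredoxins, had 15.3, and the thioredoxin inhibitor Txnip had 13.5. By reads over the 6 libraries, Txnip with 798 and Srxn1 with 771 stood above Glrx5 with 604. For Glrx5, too, an annotated end lies 1996 bases past the listed one.

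NADPH for both systems comes largely from the pentose phosphate pathway. Taldo1, Tkt, G6pdx and Pgd of that pathway had RPKMs of 97.2, 55.2, 34.7 and 15.4. Me1 and Idh1, other sources of cytosolic NADPH, had 0.649 and 0.577. By reads over the 6 libraries, Tkt led Taldo1, with 3703 against 2447. Among repair and metal loading genes, Msrb1, a selenoprotein that reduces oxidised methionine, stood at 142 (136 to 148). The other 4, led by Msra, ranged from 0.279 to 1.50. Ccs, the copper chaperone that loads Sod1, had 1.00 (0.619 to 1.53) from 21 reads, and the RPKM of Sod1 was 105-fold (68.2 to 170) that of Ccs, while its reads were 55.7-fold.

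Selenocysteine insertion needs its own machinery, and these genes were low beside Gpx1, which ranked 20 of 23456 genes. Of 6, 2 reached an RPKM of 1, as did 31.05% of all genes. Eefsec, the dedicated elongation factor, had an RPKM of 5.21 and Sephs2, which makes the selenium donor, had 1.52. Trnau1ap had 0.775 and Secisbp2, which binds selenoprotein messages, had 0.472. The lowest was Sepsecs with 1 read over the 6 libraries. GENCODE annotates a Sepsecs end 3320 bases past the listed one, and tags from there would not fall in the listed transcript. Of 8 regulators and targets of the antioxidant response, all reached an RPKM of 1, as did 31.05% of all genes. The small Maf partners Mafk and Maff led at 66.9 and 31.4, the master factor Nfe2l2 (NRF2) had 11.3 and Mafg had 9.57. For Mafg, an annotated end lies 3234 bases past the listed one. The targets in this list, Hmox1 and Nqo1, named after their values were seen, had 2.81 and 2.68. They do not stand for the targets as a whole, whose level was not tested.

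**Figure D4:**
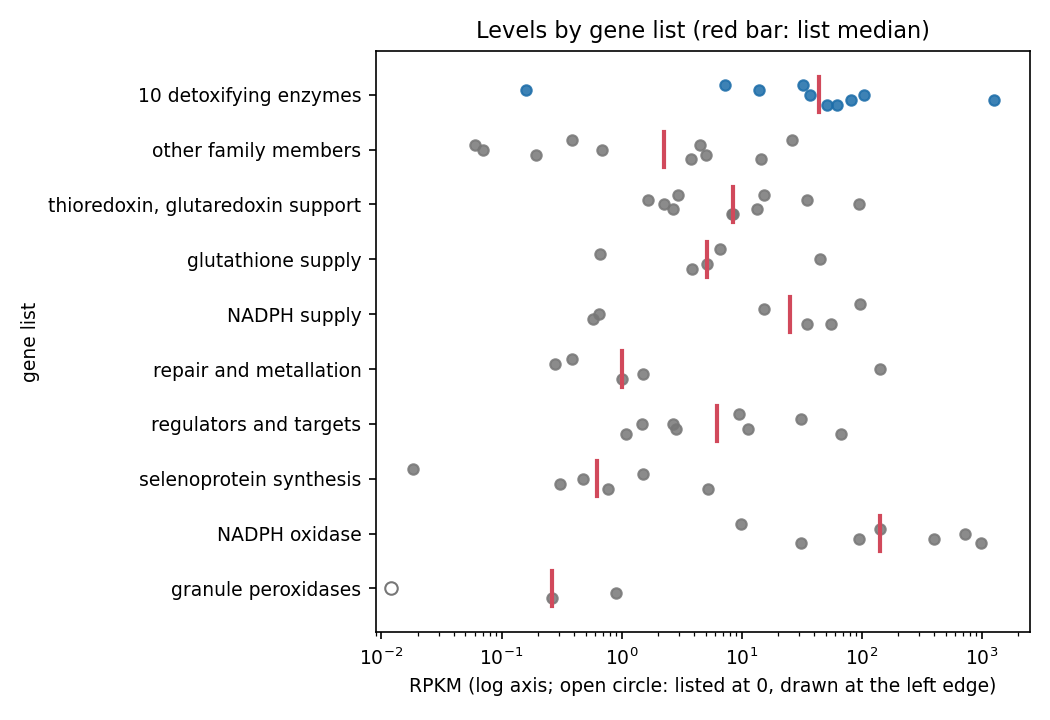
RPKM on a log axis of each gene in 10 lists, with a red bar at each list's median and an open circle for a gene listed at 0. The 10 detoxifying enzymes have a median of 43.9, below the NADPH oxidase median of 142 and above the medians of the other 8 lists by RPKM; by RPM their median, 131, is below the NADPH supply median of 166.

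Beside the oxidase that makes superoxide, the median RPKM was 43.9 for the 10 detoxifying genes and 142 for 7 oxidase genes, a ratio of 0.309. By RPM the ratio was 0.165, from medians of 131 and 798. Gpx1 stood at 1261, above Cyba, the smaller chain of the membrane core, at 990 (973 to 1007), Ncf1 at 727 and Cybb, the catalytic chain, at 402. By reads the order differed: the reads of Gpx1 were 1.87-fold those of Cyba and 0.741 of those of Cybb. Ncf1, with 38812 reads over the 6 libraries, also stood above Gpx1 with 25716. Of the granule peroxidase genes, which use the same hydrogen peroxide, Epx had 0.265 from 11 reads, Lpo had 0.904 and Mpo was listed at 0, which allows up to 3 reads.

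With 1 value per gene, no genes of like pattern across samples could be named.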

How the data were processed

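Both samples form 1 group, read from their titles. Per the submitters' processing notes, STAR 2.4.2a, DESeq (no version) and mm10 were used; per the labels' protocols, libraries were CEL-Seq with 3 technical replicates per sample. No source used here names the counter, the annotation release, strand use or how reads with several alignments were handled. There are 31295 transcript rows and 2 value columns in the deposited table. RPKM values are the authors', per the file headers. The deposited read totals are not raw: 100% of them times 6 are whole within 0.0001, as a mean over 6 libraries would be, and RPKM is 0 exactly where the total is 0. There were 0 columns of other samples. Of 1846 genes with several rows above 0, 53.7% repeat 1 total.

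Current symbols came from RefSeq by accession for 30719 rows, symbol for 413 and synonym for 85; 78 kept their own. The row with the most reads was kept per gene; the Gpx4 tie went to the higher RPKM. Shared words were searched among GENCODE M21 transcripts, which were trimmed to the listed end; no genome sequence was searched. The planned comparison of the 2 samples was not made. All 10 genes and the other family genes are named. From each support list up to the 4 highest are named, with any gene needed for the mechanism, chosen after its value was seen. Those are Gss, Me1, Idh1, Sepsecs, Txnrd2, Hmox1, Nqo1 and, among cell type markers, Epx, Cdh1, Alas2 and Slc4a1. Some genes that this rule takes are left out of the text. The genes and lists were chosen with earlier results of these data known. Computation used scipy 1.17.1, pandas 2.3.3 and numpy 2.4.6 in Python 3.11.15, and plots matplotlib 3.10.9; the word search and the intervals were tested on simulated data.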

Additional observations from a re-analysis of the deposited data

How the results depend on the processing

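Of the 10 genes, 9 reached 10 by RPM and by either rescaling, 9 reached an RPKM of 1 or 5, and 2 reached 100. Their median of 43.9 became 131 in RPM, 185 on RPKM rescaled to 1000000, 188 without ribosomal protein and mitochondrial rows, 37.1 and 31.8 as back-transformed means of log2(RPKM + 1) and log2(RPKM + 0.1), and 50.9 without Gpx4, the member with over 50% shared words. The ratio to the oxidase median, 0.309, became 0.165 by RPM. The median percentile, 97.1, became 95.3 by RPM, 96.9 on summed rows, 95.9 among genes above 0 and 90.8 among genes at an RPKM of 1 or more. RPM, rescaling and the background of genes set the scale; beyond that, the cause was not tested. By RPM, 7 of 9 neighbours were separated, against 8 by RPKM. Of 70 recomputed percentiles of single genes, 34 moved beyond the counting interval. Leaving out genes at 0 or below an RPKM of 1 must lower percentiles, and all percentiles so recomputed are among the 34. No paired analysis was possible because the table gives 1 value per gene for both samples; for the same reason, leaving out a replicate was not run. Depth limits Gpx4 and the other genes with few reads.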
